A study of Mus musculus with 6 samples.

Results

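SP1 binding sites were examined at 8 genes of receptor tyrosine kinase signalling and of its feedback on the kinase ERK, in R1 cells of the mouse, either as pluripotent embryonic stem cells (ESC) or as neural progenitor cells (NPC), both of which the titles label R1. The receptors were Egfr, Erbb3 and Erbb4, the ligand was Kitl, the adaptor was Frs2, the feedback genes were Dusp6 and Spred2, and the remaining member was the kinase gene Map4k4. A site belonged to a gene when its midpoint lay inside the gene or within 50 kb of either end, which gave 90 of the 9001 sites listed. The list covers chromosomes 1 and 10 and chromosome 11 up to position 20195189. All 8 genes had at least 1 site. The genes were selected on the log2 fold changes and calls of this same comparison, seen beforehand, so their values describe them and no test was run on them. Accessibility was measured by ATAC-seq, in which the Tn5 transposase inserts sequencing adapters into open chromatin, in 3 libraries of each cell type. No treatment or genetic change is named for either cell type, and neither the culture medium nor the number of separate cultures is given in the labels.

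Receptor tyrosine kinases bind growth factors outside the cell and pass the signal through adaptors and Ras to ERK. ERK activity in turn raises inhibitors such as DUSP6, a phosphatase that removes the activating phosphates from ERK, and SPRED proteins, which hold back Ras. In mouse ESC, ERK signalling driven by FGF4 favours exit from the naive state, and neural progenitors in culture are often maintained with EGF and FGF2. SP1 is a zinc-finger factor that binds GC-rich DNA, commonly at promoters.

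The series gives one comparison, NPC over ESC, as the mean signal of each site (the normalized count averaged over the libraries), its log2 fold change with standard error (SE), and a p-value adjusted across sites. All site values below are those of the authors' deposited table. Without values per library, which were not analysed here, no spread between libraries stands beside a site and the depth is unknown. A site rose or fell when its adjusted p per the authors' deposited table was below 0.05, and was otherwise uncalled. In these bulk libraries, a change in the share of cells with an open site and a change in openness per cell cannot be told apart. Sites near the ESC marker genes listed for this purpose leaned to falls (29 of 59, with 12 rises, at 7 of 12 genes). Those near the NPC marker genes leaned to rises (13 of 20, with 2 falls, at 3 of 8 genes), the way the labels point. Over all listed sites 22.8% rose and 32.6% fell. The marker lists were drawn up with earlier results of these data known, so they are no independent check of the labels.

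The promoters of 4 members show the DNA over which the start-site values were or were not recorded. Dusp6 and Spred2 each had an SP1 site over the promoter, whereas no listed site overlapped the promoters of Egfr and Frs2. The 250 bases before the start are given below 5′ to 3′ from RefSeq (GRCm38.p6, which is mm10), as chr10:99262981-99263230 on the plus strand for Dusp6, chr11:19924192-19924441 on the plus strand for Spred2, chr11:16751953-16752202 on the plus strand for Egfr and chr10:117148475-117148724 on the minus strand for Frs2. Capitals mark GGGCGG, the GC box that SP1 binds, or CCGGAAGT, a motif of ETS factors, some of which ERK phosphorylates, on either strand.
Dusp6: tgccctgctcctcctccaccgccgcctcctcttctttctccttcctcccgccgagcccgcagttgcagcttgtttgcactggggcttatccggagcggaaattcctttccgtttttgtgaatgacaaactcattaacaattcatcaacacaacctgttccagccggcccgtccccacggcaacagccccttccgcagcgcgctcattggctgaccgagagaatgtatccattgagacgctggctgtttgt
Spred2: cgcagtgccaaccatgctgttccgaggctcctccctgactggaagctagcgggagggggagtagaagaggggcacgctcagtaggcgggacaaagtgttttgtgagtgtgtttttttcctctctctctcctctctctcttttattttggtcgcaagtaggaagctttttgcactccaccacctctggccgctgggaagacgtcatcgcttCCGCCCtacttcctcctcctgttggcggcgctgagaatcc
Egfr: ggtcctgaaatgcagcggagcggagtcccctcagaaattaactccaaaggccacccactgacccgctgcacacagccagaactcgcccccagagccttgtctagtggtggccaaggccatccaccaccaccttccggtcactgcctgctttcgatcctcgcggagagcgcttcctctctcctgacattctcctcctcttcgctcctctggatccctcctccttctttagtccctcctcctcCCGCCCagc
Frs2: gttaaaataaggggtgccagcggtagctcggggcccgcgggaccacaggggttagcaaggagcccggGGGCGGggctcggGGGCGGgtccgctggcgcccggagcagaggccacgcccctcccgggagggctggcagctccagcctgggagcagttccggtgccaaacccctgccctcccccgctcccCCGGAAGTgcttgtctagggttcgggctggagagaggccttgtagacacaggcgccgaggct

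Over the full 300 bases, which run to 50 bases past the start, 6 of the 8 genes were in the promoter table. The GC box was found 3 times at Kitl (a pair of these overlap), 2 times at Frs2, and 1 time each at Egfr and Spred2. None was found in the windows of Dusp6 and Erbb4. Of all 32851 promoters in the table, where a gene can have more than 1, 35.7% held it. The ETS motif stood in the Frs2 window alone among these 6, and in 3.89% of all promoters. The Frs2 window held both motifs and had no listed site over it, while the Dusp6 window held neither and lay under the site of highest signal among the members. Such matches describe the letters of these windows and not binding. GC content ran from 55.3% at Erbb4 to 72.0% at Frs2, against a median of 52.7% over all promoters.

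Of the 90 sites, 30 rose (33.3%) and 22 fell (24.4%) in NPC. Over all listed sites 22.8% rose and 32.6% fell, and 55.4% were called in either direction against 52 of the 90 (57.8%) here. The median log2 fold change was 0.04 for the members and -0.29 for all sites. Spred2 supplied 11 of the 30 rises, and without it 19 of 69 sites rose and 17 fell. The gene medians ran from 3.31 at Egfr to -1.59 at Erbb3, both of them receptors.

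**Figure D1:**
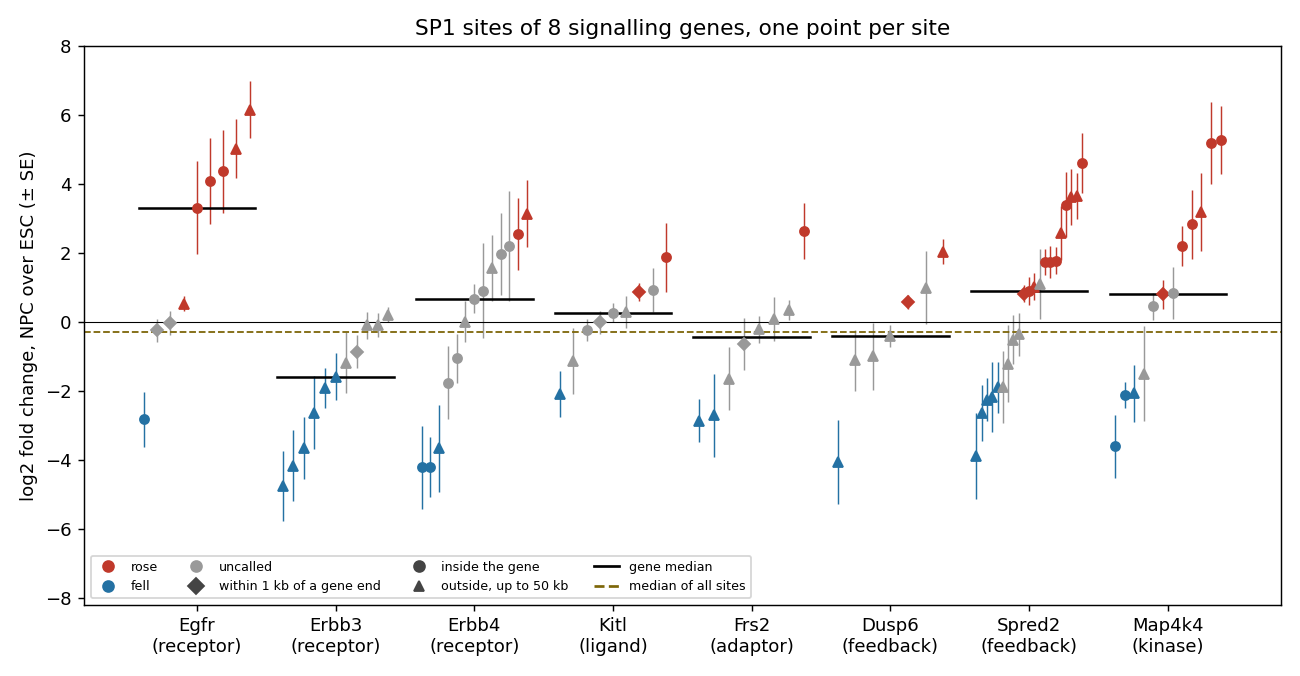
Log2 fold change of each SP1 site (NPC over ESC, vertical axis, bars ± SE) by gene, coloured by call and shaped by position, with the gene median as a black line and the median of all listed sites dashed. The sites of Egfr reach 6.15, no site of Erbb3 rose, and the gene-end sites (diamonds) lie between -0.86 and 0.87.

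Receptors and feedback genes were set side by side. Of 33 receptor sites 8 rose (24.2%) and 10 fell (30.3%), shares near the 22.8% and 32.6% of all sites. Of 28 feedback sites 13 rose (46.4%) and 6 fell (21.4%). The median log2 fold change of the feedback sites was 0.69, and it stayed above 0 under the 9 alternatives tried, although it fell to 0.10 with 1 site counted per overlapping group. Not all of these could have reversed it. Centring raises every value, the sites inside the genes were the 6 of Spred2, and a wider set added Frs2 and Map4k4. At Dusp6 alone the median was -0.41. The receptor median was -0.09, and it turned positive for sites within 10 kb (0.32), for sites inside the genes (0.68), for sites with no nearer gene (0.0057) and with fold changes centred on the median of all sites (0.19). The contrast rested on single genes on both sides. Erbb3 held 6 of the 10 receptor falls, and Egfr 6 of the 8 receptor rises. Without Erbb3, 8 of 22 receptor sites rose and 4 fell, and their median of 0.79 lay above the feedback median of 0.69. The feedback rises were at Spred2 except for a pair at Dusp6.

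**Figure D2:**
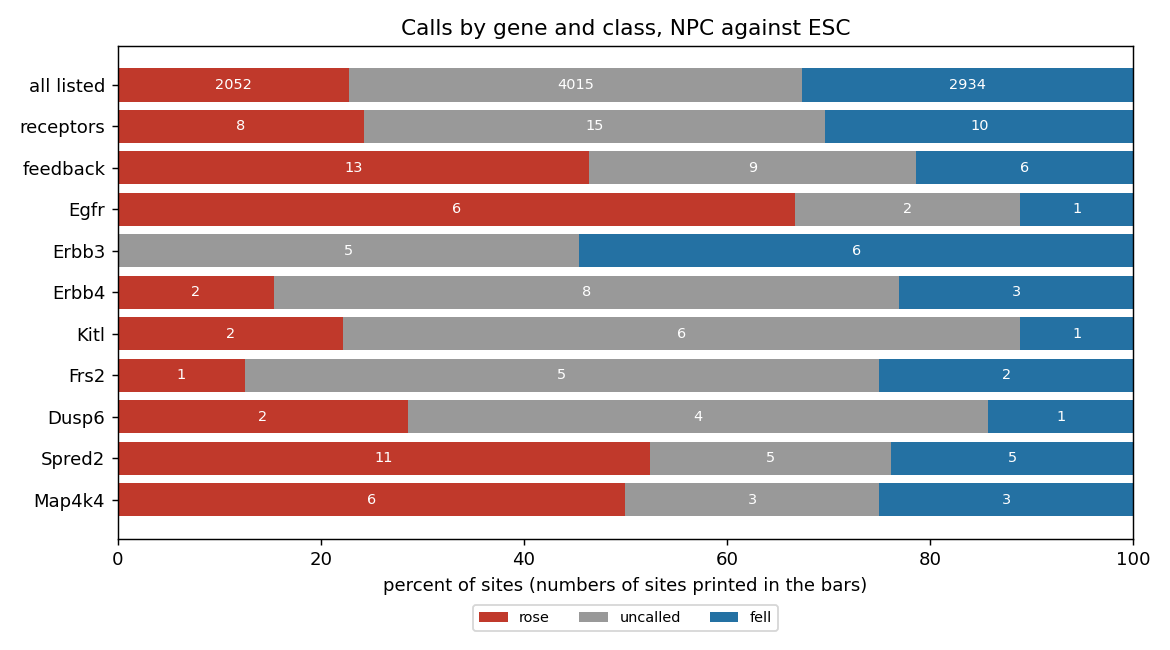
Percent of sites that rose, were uncalled or fell (horizontal axis), for all listed sites, for the receptor and feedback classes and for each gene, with numbers of sites in the bars. Spred2 with 11 of 21, Egfr with 6 of 9 and Map4k4 with 6 of 12 have the largest shares of rises, and Erbb3 has none.

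Egfr encodes the receptor of EGF, on chromosome 11. Of its 9 sites 6 rose and 1 fell, all of them away from the start. No listed site lay over the start itself, and the pair within 1 kb of it was called in neither direction. The pair of overlapping sites just inside the start had log2 fold changes of -0.24 ± 0.33 and -0.04 ± 0.35 per the authors' deposited table, with adjusted p of 0.464 and 0.918. Their mean signals per the authors' deposited table were 18.4 and 14.8, above the median of 5.78 for all sites, so this uncalled pair was not among the weak sites.

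Past the 3′ end of Egfr the changes were large. A site 27.6 kb beyond it, on chromosome 11 from 16941260 to 16941760, had a log2 rise of 6.15 ± 0.83 (SE), which is 71.1-fold, with an adjusted p of 5.52e-12 per the authors' deposited table. At a mean signal of 45.7 it was also one of the stronger sites, and 27 of the 9001 sites had a log2 fold change at least as high. Its neighbour 22.1 kb from Egfr rose by 5.02 ± 0.85 per the authors' deposited table (adjusted p = 4.24e-08). The next one out, inside Fbxo48, an F-box protein gene, had the highest signal but 1 of the 90 sites (99.0) and rose by 0.53 ± 0.21 per the authors' deposited table. All 3 lay nearer to Fbxo48 than to Egfr, so the assignment to Egfr rests on the 50 kb window.

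Inside Egfr, 3 of the 4 sites away from the start rose and 1 fell. An overlapping pair about 126 kb past the start rose by 4.36 ± 1.20 and 4.08 ± 1.24 per the authors' deposited table, and shares reads. At 6.54 kb before it, a site fell, at -2.83 ± 0.80 (adjusted p = 0.000881) per the authors' deposited table. The remaining rise, 89.2 kb past the start, was 3.31 ± 1.35 at a low mean signal of 3.07 per the authors' deposited table.

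Erbb3 encodes a neuregulin receptor with little kinase activity of its own that signals in pairs with other ErbB proteins, and lies on chromosome 10. None of its 11 sites rose, against 22.8% of all sites, and 6 fell, against 32.6%. The 2 sites to which Erbb3 had the nearest gene end were both uncalled: the gene-end site 953 bp away had -0.86 ± 0.48 (adjusted p = 0.0519) and a site 12.1 kb away -1.18 ± 0.89 (adjusted p = 0.134) per the authors' deposited table. All 6 falls thus lay nearer to other genes of this dense stretch.

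The deepest fall near Erbb3, on chromosome 10 from 128538363 to 128538863, was nearest Zc3h10, a zinc-finger gene, at -4.76 ± 1.01 (adjusted p = 9.05e-06) per the authors' deposited table. Inside Ikzf4, an Ikaros-family transcription factor gene, 3 sites fell, with log2 fold changes of -4.17, -3.66 and -2.63 per the authors' deposited table, and the first pair of them overlaps. Another fall lay next to Pa2g4, whose product was named for binding ERBB3, at -1.59 ± 0.68 (adjusted p = 0.0159) per the authors' deposited table. The remaining fall lay inside Esyt1, at -1.92 ± 0.57 (adjusted p = 0.00144) per the authors' deposited table. At 1.21 kb from it stood a strong uncalled site near Esyt1, with a mean signal of 65.6 and a log2 fold change of 0.21 ± 0.21 per the authors' deposited table. The stretch thus held falls and an uncalled strong site side by side.

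Erbb4, a neuregulin receptor gene of the developing nervous system and heart, spans 1077 kb on chromosome 1. It carried 13 sites, of which 2 rose, 3 fell and 8 were uncalled. Their median mean signal was 3.97, the lowest among the 8 genes, and the standard errors of the uncalled sites ran from 0.41 to 1.60. Deep inside the gene, sites 302 kb and 606 kb from its lower end both fell, with -4.21 ± 0.88 (adjusted p = 8.74e-06) and -4.21 ± 1.20 (adjusted p = 0.000654) per the authors' deposited table. Between the second of these and the start, a site rose by 2.55 ± 1.05 (adjusted p = 0.0140) per the authors' deposited table, 39.0 kb from the fall.

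At the 5′ side of Erbb4, which is read from the minus strand, the site of highest signal (16.7) lay 2.65 kb inside the gene and had 0.68 ± 0.41 (adjusted p = 0.0799) per the authors' deposited table. Upstream, 1 of 3 sites rose, by 3.14 ± 0.98 (adjusted p = 0.00202) at a distance of 49.0 kb per the authors' deposited table. Beyond the opposite end a site 48.6 kb away fell, at -3.67 ± 1.27 per the authors' deposited table. Both of these lie close to the 50 kb limit.

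**Figure D3:**
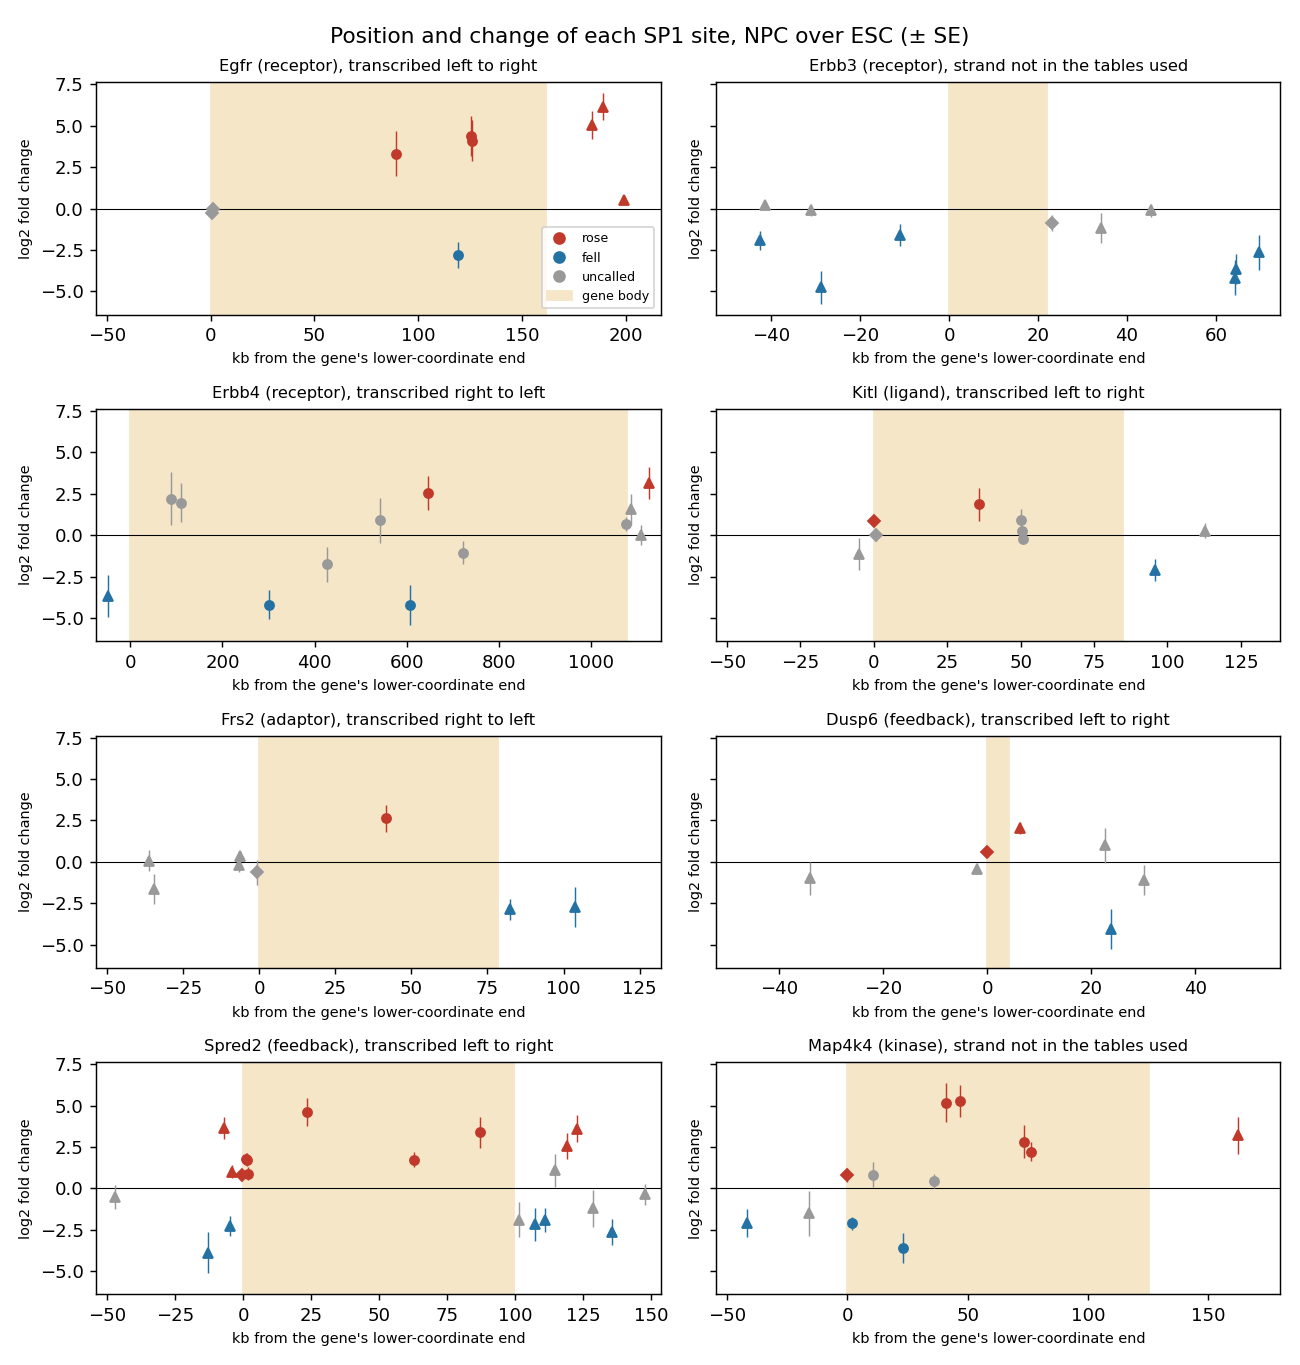
Log2 fold change (NPC over ESC, vertical axis, bars ± SE) of each site against its distance in kb from the lower-coordinate end of the gene, 1 panel per gene, with the gene body shaded and its direction of transcription in the title. Inside Spred2 all 6 sites rose, and in Map4k4 all 5 sites more than 40 kb above the lower end rose.

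Kitl encodes stem cell factor, the ligand of the receptor KIT, on chromosome 10. The gene had 9 sites, of which 2 rose, 1 fell and 6 were uncalled, with a median log2 fold change of 0.26. The share of rises, 22.2%, was near the 22.8% of all listed sites. That of falls was 11.1%, against 32.6%. The site over the start had a mean signal of 52.8 and rose by 0.87 ± 0.26, or 1.82-fold (adjusted p = 0.00109), per the authors' deposited table. Its neighbour 676 bp inside the gene had -0.02 ± 0.34 per the authors' deposited table and was uncalled. A group of 3 sites about 50 kb into the gene, with mean signals of 7.48, 29.9 and 22.6, was uncalled at 0.92 ± 0.63, 0.26 ± 0.28 and -0.24 ± 0.32 per the authors' deposited table. The other rise, 35.9 kb inside the gene, was 1.88 ± 1.00 (adjusted p = 0.0451) and the lone fall, 10.9 kb past the 3′ end, was -2.09 ± 0.67 (adjusted p = 0.00276) per the authors' deposited table.

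Frs2 encodes the docking protein that links FGF receptors to the Ras pathway, on the minus strand of chromosome 10. Of its 8 sites 1 rose, 2 fell and 5 were uncalled. Both falls lay upstream of its start: the nearer, 3.99 kb away, had -2.86 ± 0.63 (adjusted p = 3.15e-05) and the farther, 25.5 kb away, -2.71 ± 1.21 (adjusted p = 0.0195) per the authors' deposited table. Within the gene a single site rose by 2.63 ± 0.82, or 6.20-fold (adjusted p = 0.00219), per the authors' deposited table. The gene-end site, 833 bp past the 3′ end, had -0.64 ± 0.75 at a mean signal of 4.48 per the authors' deposited table and was uncalled. The remaining 4 sites were nearer to other genes, among them Cct2, a chaperonin subunit gene, and none was called.

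Dusp6, the ERK phosphatase gene, is 4.26 kb long and had 7 sites on chromosome 10. The site over its start, from 99262943 to 99263443, had the highest mean signal of all 90, 112, a level reached by 17 of the 9001 sites. It rose by 0.57 ± 0.21, or 1.48-fold (adjusted p = 0.00871), per the authors' deposited table. A larger rise stood 1.99 kb past the 3′ end, with 2.03 ± 0.36, or 4.10-fold (adjusted p = 4.39e-07), per the authors' deposited table. Upstream, 1.91 kb before the start, the signal was 23.3 and the change -0.41 ± 0.32 per the authors' deposited table, uncalled, so the sites on the 2 sides of the gene, at like distance and signal (23.3 and 26.6), had different calls. The difference between them was not tested.

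Farther downstream of Dusp6 a site 19.6 kb away fell, at -4.08 ± 1.22 (adjusted p = 0.00103) and a mean signal of 4.90 per the authors' deposited table. The other 3 uncalled sites had mean signals of 2.65 to 3.76 and log2 fold changes of -1.11 to 0.99 per the authors' deposited table. Rises at Dusp6 thus lay at its start and just past its end, and the gene's median of -0.41 was the value of the uncalled upstream site.

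Spred2 encodes a Sprouty-related inhibitor of the Ras-ERK pathway and lies on chromosome 11, close to the end of the listed stretch. By the same window, 21 of the 2297 protein-coding genes in the listed regions, Spred2 included, had at least its 21 sites, and 2, again with Spred2, had at least its 11 rises. The median gene with a site had 6. Neighbouring genes share sites under this rule, and long genes collect more.

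Around the start of Spred2 the rises were close together and moderate. The promoter site, centred 296 bp upstream with a mean signal of 60.3, rose by 0.82 ± 0.25 (adjusted p = 0.00139) per the authors' deposited table. Just inside the gene, 3 overlapping sites with signals of 19.6 to 21.3 rose by 1.77 ± 0.39, 1.73 ± 0.39 and 0.89 ± 0.40 per the authors' deposited table. They share reads and make up 1 stretch of raised accessibility.

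Deeper in Spred2, all 3 other sites rose too, so that none of the 6 sites inside the gene fell or was uncalled. At 23.4 kb past the start, on chromosome 11 from 19947610 to 19948110, the rise was 4.61 ± 0.86, or 24.4-fold (adjusted p = 6.92e-07), per the authors' deposited table. Further in, 62.8 kb and 87.3 kb past the start, it was 1.74 ± 0.47 and 3.40 ± 0.94 per the authors' deposited table.

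Outside Spred2 the directions were mixed. Of the 5 upstream sites beyond 1 kb, 2 rose and 2 fell, and they alternated over short distances. A site 6.86 kb upstream rose by 3.65 ± 0.67, or 12.6-fold (adjusted p = 5.92e-07), per the authors' deposited table. The next, 4.80 kb upstream, fell, at -2.26 ± 0.61 (adjusted p = 0.000628) per the authors' deposited table, and the one after it, 0.641 kb closer to the gene, rose by 1.01 ± 0.39 (adjusted p = 0.00816) per the authors' deposited table. Farther out, at 13.0 kb, the gene's deepest fall was -3.90 ± 1.24 per the authors' deposited table.

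Downstream of Spred2, 2 of 9 sites rose and 3 fell. The rises stood next to each other, 19.4 kb and 23.4 kb past the end, at 2.56 ± 0.78 and 3.61 ± 0.81 per the authors' deposited table, and lay nearer to Actr2, a subunit gene of the actin-nucleating ARP2/3 complex. Falls of -2.18 ± 1.02 and -1.90 ± 0.74 per the authors' deposited table came closer to Spred2, at 7.72 kb and 11.6 kb.

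Map4k4 encodes a Ste20-family kinase that acts upstream of the stress kinase JNK, on chromosome 1. Of its 12 sites 6 rose, 3 fell and 3 were uncalled. Called sites of both directions lay around the lower end. The site 43 bp from it rose by 0.80 ± 0.41 (adjusted p = 0.0416) per the authors' deposited table. At 2.03 kb and 23.0 kb inside, sites fell, with -2.12 ± 0.38 (adjusted p = 6.49e-07) and -3.61 ± 0.91 (adjusted p = 0.000190) per the authors' deposited table. The remaining fall lay outside the gene, 41.5 kb below the lower end, at -2.07 ± 0.83 (adjusted p = 0.0125) per the authors' deposited table.

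More than 40 kb above the lower end of Map4k4, a division drawn after the values were seen, all 5 sites rose. The leading one, on chromosome 1 from 39947619 to 39948119 and 47.0 kb inside, rose by 5.28 ± 0.99, or 38.9-fold (adjusted p = 5.51e-07), at a mean signal of 18.4 per the authors' deposited table. Beside it, 41.0 kb inside, a site of lower signal (5.93) rose by 5.18 ± 1.19 per the authors' deposited table. Another pair of sites, 73.3 kb and 76.2 kb inside, rose by 2.83 ± 1.00 and 2.21 ± 0.58 per the authors' deposited table. The last rise, 36.9 kb beyond the upper end, was 3.20 ± 1.13 per the authors' deposited table and lay nearer to Il1r2, an interleukin-1 decoy receptor gene.

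Counts by position set the gene ends apart from the gene bodies. Of the 9 sites within 1 kb of a member's end, 4 rose (at Dusp6, Spred2, Kitl and Map4k4), none fell and 5 were uncalled. Over all gene-end sites listed, 24.1% rose and 16.1% fell. Each of the 4 rises was small, between 0.57 and 0.87 on the log2 scale per the authors' deposited table, and the 3 receptor sites in this class, at Egfr and Erbb3, were uncalled with values of -0.86 to -0.04. Of the 32 sites inside the genes away from the ends 16 rose and 5 fell, with a median of 1.74, where sites of this kind over all genes had 24.7% rises, 33.2% falls and a median of -0.34. Most of the 16 rises were at Spred2 (6), Map4k4 (4) and Egfr (3), with overlapping sites at Spred2 and Egfr. Erbb4 had 1 rise and 2 falls at 9 such sites, and Kitl 1 rise at 4. Of the 49 sites outside the genes 10 rose (20.4%) and 17 fell (34.7%), with a median of -1.0. These are near the values of all sites between genes (20.5% rises, 38.3% falls, median -0.95), although some of the 49 lie within other genes.

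The 5 member sites with a mean signal of at least 50 had log2 fold changes of 0.21 to 0.87, and 4 of them rose. This cut was not set in advance. The member site next in signal, at Egfr with 45.7, had the largest change of all member sites, 6.15. The 12 sites beyond 4 in size had mean signals of 4.90 to 45.7, and standard errors of 0.83 to 1.24. At low signal the points follow sharp edges, and the size of such changes rests on the authors' fit where reads are few.

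**Figure D4:**
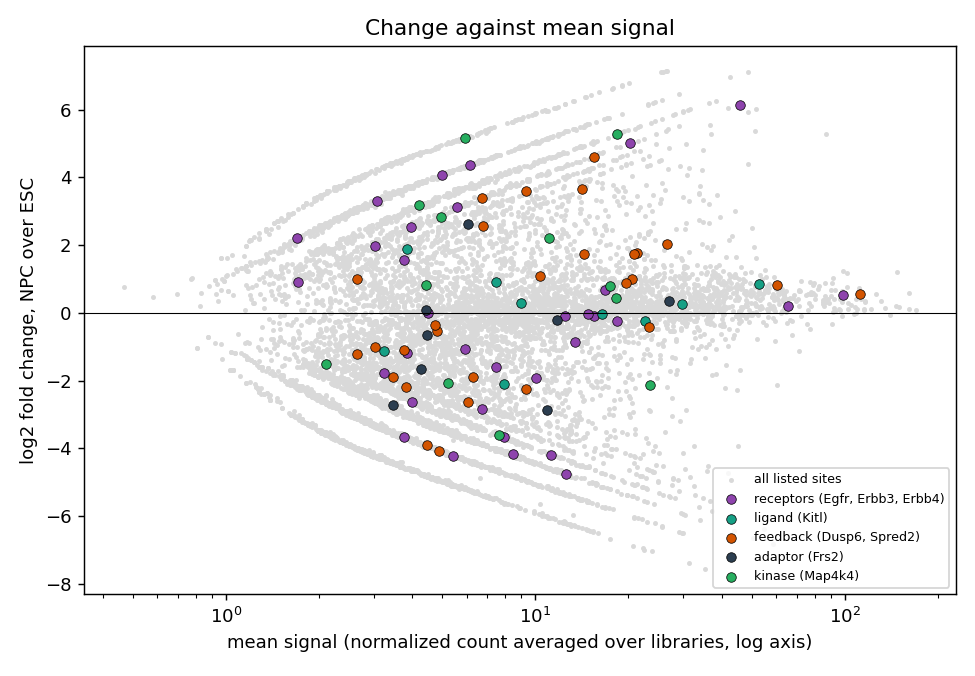
Log2 fold change (NPC over ESC, vertical axis) against mean signal (normalized count averaged over the libraries, log axis) for all 9001 sites in grey and the 90 member sites coloured by class. Member sites with a signal of at least 50, such as that over the Dusp6 start at 112, lie between 0.21 and 0.87. The Egfr site at 45.7 with 6.15 stands apart from the other members.

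Some neighbouring sites of a gene had opposite calls. Among 75 pairs of adjacent sites that did not overlap, both sites were called in 26, with the same direction in 18 and opposite directions in 8. The same share over adjacent pairs of all listed sites was not computed, so these counts only describe the members. Spred2 had 3 of the opposite pairs and Egfr a further 2. In the 6 groups of overlapping sites, which share reads, the calls were alike within each group.

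The 50 kb limit divided sites that lay on either side of it. Just inside it were the Erbb4 rise of 3.14 at 49.0 kb and the uncalled Spred2 site of -0.36 at 48.3 kb. Falls stood there too, of -3.67 at Erbb4 (48.6 kb) and -2.63 at Erbb3 (47.5 kb). The nearest sites outside the limit fell at Kitl (-1.50 ± 0.60 at 52.6 kb) and Map4k4 (-2.03 ± 1.03 at 59.5 kb). They also fell at both feedback genes, Dusp6 (-3.76 ± 1.25 at 55.9 kb) and Spred2 (-5.13 ± 1.00 at 76.3 kb), per the authors' deposited table. Those nearest outside at Egfr (0.92 ± 0.81 at 54.1 kb), Erbb3, Erbb4 and Frs2 were uncalled. In all, 23 of the 90 sites had a nearer gene end than that of the member they were counted with, 9 of them at Erbb3.

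Of 103 other genes of the receptor tyrosine kinase and ERK pathway on a list, 20 lay in the listed regions, all with sites, 204 in all. Of these sites 50 rose (24.5%) and 57 fell (27.9%), with a median of -0.0022, so the shares stood near those of all sites, 22.8% and 32.6%. Sites were called in both directions at 14 genes, rises alone at 1, falls alone at 4, and Elk4, an ETS factor gene, had no called site among 12.

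Among these genes the smallest adjusted p belonged to a site inside Elk3, another ETS factor gene, which rose by 3.49 ± 0.39 (adjusted p = 2.70e-16) per the authors' deposited table. Inside Mapkapk2, a p38-activated kinase gene, a site rose by 3.52 ± 0.42 (adjusted p = 1.33e-14) per the authors' deposited table. Near Ptpn7, a phosphatase gene of the MAP kinases, the leading site rose by 4.79 ± 0.75 per the authors' deposited table. Rises also led for the Src-family kinase gene Fyn (4.63 ± 0.86) and the insulin receptor substrate gene Irs1 (5.88 ± 1.13) per the authors' deposited table. The leading sites of the collagen receptor gene Ddr2 (2.82 ± 0.52) and of Map3k5 (4.88 ± 1.15) rose too, per the authors' deposited table. At Fyn 8 of 18 sites rose (44.4%), against 22.8% of all listed sites.

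Falls led for the Ras GTPase-activating protein gene Rasal2 (-4.08 ± 0.71) and for Grb10 (-4.11 ± 0.78) per the authors' deposited table. Grb10 is an adaptor gene that restrains insulin signalling. Other falls were the leading sites of the phosphatase gene Dusp10 (-5.29 ± 1.15) and the ephrin receptor gene Epha4 (-5.12 ± 1.15) per the authors' deposited table. That of the small GTPase gene Rap1b (-5.10 ± 1.20) fell as well, per the authors' deposited table. At Rasal2 7 of 19 sites fell (36.8%), near the 32.6% of all listed sites, and at Epha4 7 of 13 (53.8%). Of the sites named for these 12 genes, those of Ptpn7, Rasal2, Ddr2, Dusp10 and Rap1b lay outside the gene and nearer to another one. The sites of Rasal2 and Ddr2 lay inside Cryzl2 and Ccdc190, 45.9 kb and 43.6 kb from the genes they are counted with. The site of Irs1 lay 43.3 kb outside that gene, and the one inside Elk3 was nearer to an end of Cdk17.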

How the data were processed

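ATAC-seq was done on 3 ESC and 3 NPC libraries, grouped by the titles. Per the submitters' processing notes, the authors used the mm10 build, BWA 2.1, Picard 2.23.8, MACS2 2.2.7, SAMtools 1.9 and DESeq2, but its version and model, any Tn5 shift and how SP1 sites were picked are not stated there, and each could change the values. Per the file headers, the deposited signal is a mean normalized count per 500 bp site, with a log2 fold change and its SE, a p-value and an adjusted p-value from 1 comparison across all sites. The direction, NPC over ESC, comes from the name of the table. A p-value computed anew from that fold change and its SE was never below the deposited one (median ratio 2.35). Called by that p-value, adjusted anew, 27 member sites rose and 20 fell, in place of 30 and 22. Coordinates are as deposited, with no statement whether they count from 0 or 1.

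The members and lists were chosen with earlier results of these data known. Sites were tied to genes by midpoint with RefSeq GRCm38.p6, in Python 3.11.15 with pandas 2.3.3, and the assignment was checked on simulated data. Counts and medians describe sites, which are not replicates. Named were all 8 members, for each the site of smallest adjusted p, gene-end sites and the leading site each way, and up to 12 other pathway genes by smallest adjusted p. No test was run. Alternatives were other thresholds, windows, assignments, signal filters, overlap rules, centring and the recomputed p-value. The labels do not state separate cultures for the libraries, so the deposited p-values may measure technical spread.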

Additional observations from a re-analysis of the deposited data

How the results depend on the processing

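The counts and medians depended most on which sites were tied to a gene. The number of members' sites that rose was 30 and ranged from 17 to 31 over 11 alternatives, falling to 17 only for sites inside the genes. The number that fell was 22 and ranged from 5 to 24. It was 8 within 10 kb, 5 inside the genes, 14 for sites of at least median signal, and 13 with all sites given to the gene with the nearest end within 50 kb of that end, a rule added, like nearest ends at any distance, after the data were seen. These settings hold fewer sites by construction (52, 36, 55 and 57, in this order, in place of 90). Within 10 kb and inside the genes the shares moved as well. Within 10 kb 23 of 52 sites rose and 8 fell, and inside the genes 17 of 36 rose and 5 fell. The receptor median of -0.09 became 0.32 within 10 kb, 0.68 inside the genes, 0.0057 for sites with no nearer gene and 0.19 with centring, which moves every value by 0.29. The feedback median of 0.69 rose to 1.76 inside the genes, where all 6 sites were of Spred2. It kept its sign under the other 8 alternatives, from 0.10 to 1.41. Among these, centring raises it by construction, and the set of all intracellular members also holds Frs2 and Map4k4.

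No paired analysis was possible because values per library were not analysed here, and leaving out single libraries was not run for the same reason. Precision at sites of low signal is limited by few reads, and the number of reads per library is unknown.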
